A study of Mus musculus with 6 samples.

Results

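The YAP and TEAD pathway is followed here through 9 genes in mouse mammary tumour cells that had been given hydrogen peroxide (H2O2) every day for 7 months. The 9 genes were taken by name from the 24454 gene rows of the table: Yap1, Wwtr1, Tead1, Lats2, Ccn1, Ccn2, Ankrd1, Amotl2 and Ajuba. The cell line, MTflEcad, is epithelial and was derived from an MMTV-Neu mammary tumour, so that all 3 groups share a Neu (ERBB2) oncogene driven by the MMTV promoter. The line I80 received 80 µM H2O2, the line DI150 received 150 µM, and the untreated line PBS (0 µM) was their control, with 2 RNA libraries for each. Since every dose was applied to a single line, dose and line cannot be told apart, and no source used here gives the density of the cultures at harvest.

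YAP (gene Yap1) and TAZ (gene Wwtr1) are coactivators that bind no DNA themselves and reach it through the TEAD transcription factors. The Hippo kinases LATS1 and LATS2 phosphorylate YAP and TAZ and so keep them in the cytoplasm, a step that responds to cell density, cell polarity and tension of the actin cytoskeleton. In epithelial cells spread at low density YAP and TAZ are nuclear, and genes such as Ccn1, Ccn2 and Ankrd1 are widely used as readouts of their activity. RNA levels report the abundance of these transcripts and not the phosphorylation or position of YAP and TAZ.

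Levels are deposited CPM (assigned reads of a gene in 1000000) from libraries of 21017849 to 26608715 assigned reads. All 9 genes passed the filter of a mean of at least 1 CPM that left 11428 genes for testing with limma, and calls were made where the Benjamini-Hochberg adjusted p over those genes was under 0.05. The filter took the mean over all libraries. Genes near 0 in both treated lines, among them Ankrd1, Tead2, Axl, Col8a1, Tpm2 and Csf1r, passed it through their PBS level alone. Their p-values describe the fall and are not separate support for it. Fold changes are on the log2(CPM + 0.5) scale with their standard error, and folds of means are ratios of mean CPM. The spread behind each p-value is that between these libraries, which the labels do not trace to separate long-term cultures. Between the 2 libraries of a group, the chi-square of read counts (genes with at least 10 reads) was, per degree of freedom, 4.39 in I80, 9.42 in DI150 and 23.3 in PBS, so the PBS pair was the least alike. The epithelial markers Cdh1, Epcam, Krt8, Krt18, Cldn3, Cldn7, Esrp1, Grhl2 and Erbb2 were present in all libraries. Krt19 was at 0 in both treated lines. Cldn4 had 0.936 and 0.412 CPM in I80 and 0.428 and 0.611 CPM in DI150, against 124 and 178 CPM in PBS. The 11 epithelial markers summed to 5448 to 5683 CPM in I80, 6067 to 6491 CPM in DI150 and 7482 to 7749 CPM in PBS. Of them 8 were called lower in each treated line, where 34.2% of all tested genes were called lower in I80 and 36.1% in DI150. Of these markers Erbb2 was called higher in both lines, with means of 2095 CPM in I80 and 2642 CPM in DI150, against 597 CPM in PBS, and Epcam was called higher in DI150. Without Erbb2 the sums were 3459 to 3482 CPM in I80, 3480 to 3794 CPM in DI150 and 6982 to 7055 CPM in PBS, and their part in the values given here was not tested. Markers of fibroblasts summed to 23.8 to 24.4 CPM in I80, 22.7 to 23.1 CPM in DI150 and 23.6 to 25.6 CPM in PBS. These like sums were made of different genes: Col1a2 was at 0 in all 4 treated libraries, against 15.3 CPM in each PBS library, while Pdgfra had means of 14.8 CPM in I80 and 18.7 CPM in DI150, against 5.27 CPM in PBS, and Col1a1 had 8.90 CPM in I80 and 3.74 CPM in DI150, against 2.11 CPM in PBS. All 3 were called in both lines, where 66.4% of all tested genes were called in I80 and 68.7% in DI150. The 9 immune markers summed to 22.1 to 26.5 CPM in I80, 62.8 to 74.3 CPM in DI150 and 86.6 to 102 CPM in PBS, mostly Cd14. Csf1r had no read in any treated library, against 7.67 and 14.5 CPM in the PBS libraries (at least 92.2-fold lower in I80 with the floor of 3 reads per library, limma adjusted p = 7.23e-06), while Adgre1 and Cd3e were at 0 in every library and Ptprc did not exceed 0.263 CPM. Endothelial markers summed to at most 0.824 CPM in any library, and adipocyte markers to at most 0.162 CPM outside DI150, where they came to 11.8 to 13.6 CPM, nearly all from Lpl. The part of the fibroblast, immune and adipocyte markers was not tested either. In bulk RNA, fewer cells with a transcript and less of it per cell cannot be told apart.

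Transcripts of the target genes Ccn1, Ccn2 and Ankrd1 and of the junction proteins Amotl2 and Ajuba fell in both treated lines, while Yap1 itself rose in both. In I80 against PBS, 1 of the 9 genes was called higher and 6 lower, where 66.4% of all tested genes were called, 32.3% higher and 34.2% lower. In DI150 against PBS, 1 was called higher and 7 lower, where 68.7% of all tested genes were called, 32.7% higher and 36.1% lower. Called in either direction were thus 77.8% of the 9 genes in I80 and 88.9% in DI150, both above the share over all genes. With 9 genes these counts are not read as a result about the set. Groups did not overlap for 8 of the 9 genes in I80 and 8 in DI150, where this held for 83.7% and 83.5% of all tested genes. The median log2 fold change of the 9 genes was -0.66 in I80 and -0.80 in DI150, beside -0.002 and -0.03 over all tested genes. The 9 genes were chosen with earlier results of these data known, so this contrast is a description and not a test. Both comparisons use the same PBS libraries, so the values of I80 and DI150 are given side by side and not as independent repeats.

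**Figure D1:**
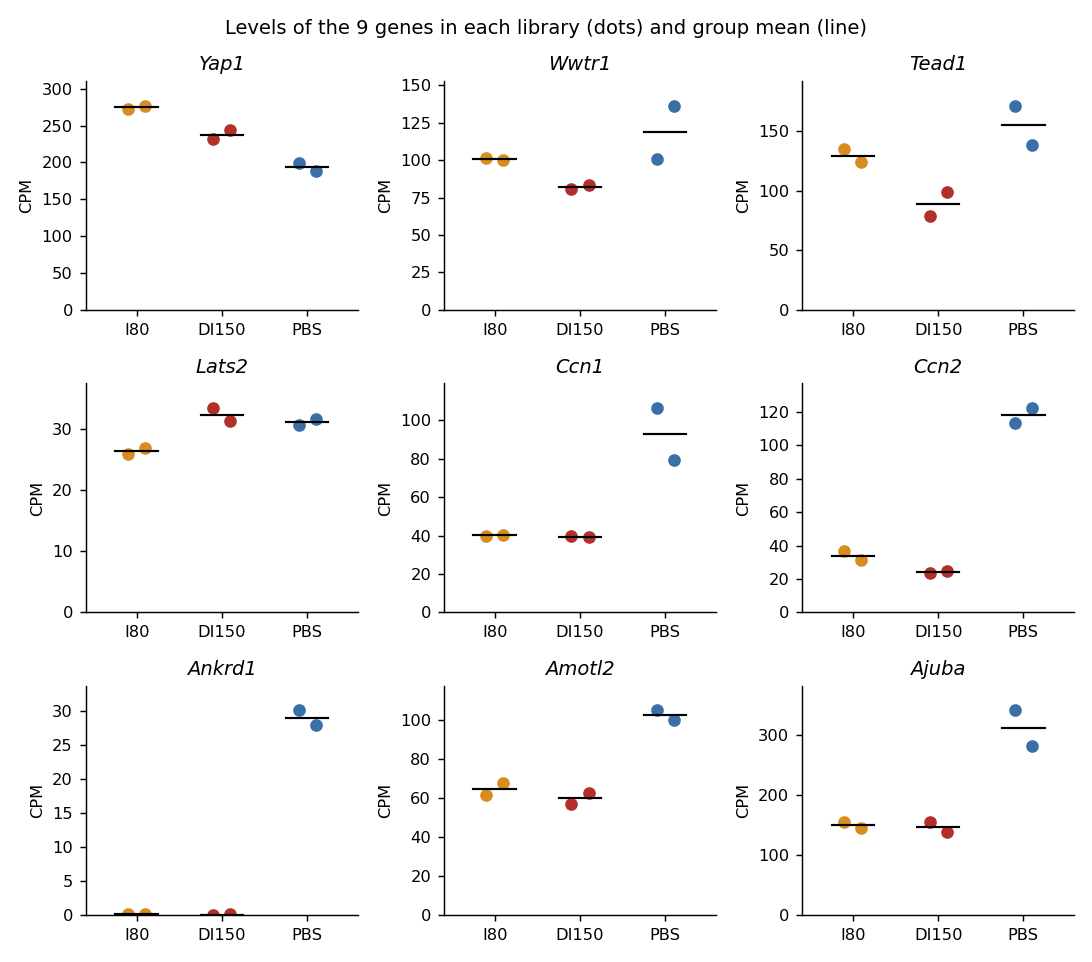
Levels in CPM of the 9 genes, with 1 dot for each library and a line at the mean of each group, I80, DI150 and PBS from left to right and each vertical axis starting at 0. Ccn1, Ccn2, Ankrd1, Amotl2 and Ajuba lie lower in all 4 treated libraries than in both PBS libraries, and Yap1 lies higher, with 273 and 277 CPM in I80, 232 and 244 CPM in DI150 and 199 and 188 CPM in PBS.

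The coactivators differed in direction. Yap1 (gene number 22601, chr9:7931999-8004638 on GRCm38) had 273 and 277 CPM in the I80 libraries, 232 and 244 CPM in the DI150 libraries, and 199 and 188 CPM in the PBS libraries. All 4 treated libraries lay above both PBS libraries, and I80 lay above DI150. Yap1 rose 1.42-fold in I80 (log2 fold change 0.51 ± 0.06, limma adjusted p = 0.000277) and 1.23-fold in DI150 (0.30 ± 0.06, limma adjusted p = 0.00428). Between the treated lines it was lower in DI150 (log2 fold change -0.21 ± 0.06, limma adjusted p = 0.033), a call that was lost when any 1 of the 4 treated libraries was left out (limma adjusted p = 0.0674 to 0.190).

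Wwtr1 (gene number 97064, chr3:57455644-57575910), which encodes TAZ, had 101.1 and 100.1 CPM in I80, 80.5 and 83.5 CPM in DI150, and 100.5 and 136 CPM in PBS. The PBS libraries stood apart from each other, and the lower of them fell between the I80 libraries. Wwtr1 fell 1.44-fold in DI150 (log2 fold change -0.51 ± 0.13, limma adjusted p = 0.00869), and it did not pass the test in I80, where the difference was -0.22 with an interval of -0.52 to 0.08 (limma adjusted p = 0.171). The value in I80 turned on the PBS libraries: it was -0.44 without PBS replicate 1 (limma adjusted p = 0.00217) and 0.002 without PBS replicate 2 (limma adjusted p = 0.977). In DI150 the change was -0.73 without PBS replicate 1 and -0.29 without PBS replicate 2, and the call was lost without DI150 replicate 1 (limma adjusted p = 0.0552). Against I80, DI150 had a difference of -0.29 with an interval of -0.60 to 0.01 (limma adjusted p = 0.102), which was called when either PBS library was left out (limma adjusted p = 0.00633 and 0.00647). Scaled by exon length, Yap1 made up 58.5% of the summed Yap1 and Wwtr1 level in I80, 60.0% in DI150 and 46.1% in PBS. The sum itself was 50.8 CPM per kb in I80, 42.8 in DI150 and 45.7 in PBS.

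Among the DNA-binding partners, Tead1 (gene number 21676, chr7:112679356-112906784) had 135 and 124 CPM in I80, 79.0 and 99.1 CPM in DI150, and 172 and 138 CPM in PBS. The DI150 libraries were below all others, and the I80 libraries were just below the lower PBS library. Tead1 fell 1.74-fold in DI150 against PBS (log2 fold change -0.80 ± 0.13, limma adjusted p = 0.00116). In I80 the difference of -0.25 (interval -0.56 to 0.06) did not pass the test (limma adjusted p = 0.134). DI150 was also 1.45-fold lower than I80 (log2 fold change -0.55 ± 0.13, limma adjusted p = 0.0141), and this call was lost without I80 replicate 1, I80 replicate 2 or DI150 replicate 1 (limma adjusted p = 0.0973, 0.0548 and 0.0961).

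The largest change in the TEAD family was in a paralog. Tead2 had 9 and 17 reads (0.351 and 0.701 CPM) in the I80 libraries and no read in either DI150 library, against 75.1 and 66.8 CPM in the PBS libraries. It was 135-fold lower in I80 (limma adjusted p = 2.39e-07) and at least 552-fold lower in DI150 (limma adjusted p = 9.93e-08), taking a floor of 3 reads per library, and at least 4.09-fold lower in DI150 than in I80 (limma adjusted p = 0.00546, or 0.0628 with a replicate block). Tead2 shares exon sequence with Cd37 on the opposite strand, but Cd37 had no read outside PBS replicate 2, at 0.121 CPM. Tead3 had 9.60 and 9.56 CPM in I80, 15.8 and 16.9 CPM in DI150, and 18.0 and 23.8 CPM in PBS. It fell in I80 (log2 fold change -1.07, limma adjusted p = 0.000348), whereas the difference of -0.33 in DI150 passed the test only without PBS replicate 1 or with edgeR (adjusted p = 0.0712 with limma). Tead4 was the TEAD gene that rose: it had 119 and 115 CPM in DI150 and 80.0 and 78.1 CPM in I80, against 85.3 and 78.0 CPM in PBS. Tead4 was 1.43-fold higher in DI150 than in PBS (log2 fold change 0.52, limma adjusted p = 0.000402) and 1.48-fold higher than in I80 (0.56, limma adjusted p = 0.000867), while I80 and PBS overlapped (-0.04, interval -0.21 to 0.12, limma adjusted p = 0.597).

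**Figure D2:**
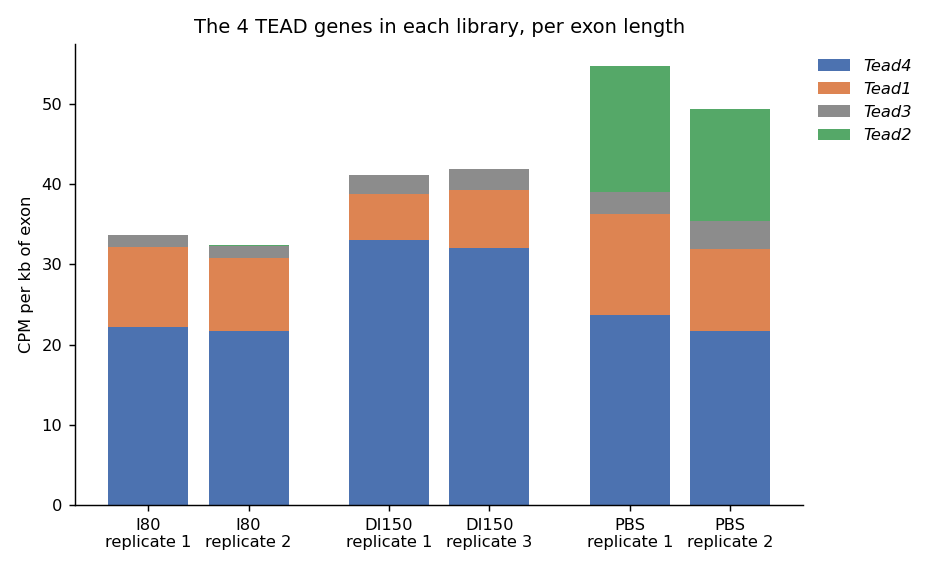
Stacked bars of the level of the 4 TEAD genes in each library, in CPM per kb of exon, with I80 and DI150 left of PBS. Tead2 is visible only in the PBS bars, where it makes up 28.5% of the sum on average, and Tead4 makes up 66.5% in I80, 78.3% in DI150 and 43.6% in PBS.

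Per exon length the 4 TEAD genes together came to 32.4 and 33.7 CPM per kb in the I80 libraries, 41.2 and 41.8 in the DI150 libraries, and 49.4 and 54.7 in the PBS libraries. The groups did not overlap, and both treated lines were below PBS. The share of Tead1 was 28.9% in I80, 15.8% in DI150 and 21.9% in PBS. The share of Tead2 was 0.335% in I80 and 28.5% in PBS, with no read in DI150, and that of Tead3 lay between 4.32% and 6.04% in all lines. The plot of TEAD levels by library shows this as the loss of 1 layer from the treated bars and a taller Tead4 layer in DI150. The exon lengths are those of a GENCODE annotation of GRCm38, since no source used here names the annotation the authors counted on.

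Among the 9 genes the largest falls in both treated lines were those of Ankrd1, Ccn2 and Ccn1. Ankrd1 (gene number 107765, chr19:36111965-36119844), which encodes an ankyrin repeat protein of the nucleus and of muscle sarcomeres, had 2 reads in each I80 library and 0 and 2 reads in the DI150 libraries, against 799 and 689 reads in the PBS libraries. In CPM this was 0.0780 and 0.0824 in I80, 0 and 0.0763 in DI150, and 30.0 and 27.9 in PBS. The transcript was thus at the level of single reads in every treated library. It was 361-fold lower in I80 than in PBS (limma adjusted p = 1.84e-07). In DI150, with 2 reads in all, pooled reads gave a 684-fold lower level with an exact 95% counting interval of 189 to 5656 (limma adjusted p = 1.37e-07). DI150 and I80 could not be told apart at this depth (log2 difference -0.11, interval -0.51 to 0.29). At such levels the added 0.5 CPM holds this value near 0 and its interval narrow, so it does not show equal levels. Over the alternative settings the difference ran from -0.91 to -0.01.

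Ccn2 (gene number 14219, chr10:24595442-24598683) encodes CTGF, a secreted matricellular protein. Its levels were 36.5 and 31.5 CPM in I80, 23.7 and 25.1 CPM in DI150, and 113 and 122 CPM in PBS. The 3 groups were fully separated, with DI150 lowest. Ccn2 fell 3.47-fold in I80 (log2 fold change -1.78 ± 0.10, limma adjusted p = 2.84e-06) and 4.83-fold in DI150 (-2.25 ± 0.10, limma adjusted p = 7.84e-07). DI150 was 1.39-fold lower than I80 (log2 fold change -0.47 ± 0.10, limma adjusted p = 0.00665), and this call was lost without I80 replicate 1 or DI150 replicate 1 (limma adjusted p = 0.0678 and 0.0505).

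Ccn1 (gene number 16007, chr3:145646971-145649985) encodes CYR61, a second protein of the same secreted family. It had 40.0 and 40.1 CPM in I80 and 39.5 and 39.0 CPM in DI150, against 106 and 79.1 CPM in PBS. The 4 treated libraries lay close together and far below both PBS libraries, which themselves differed. Ccn1 fell 2.32-fold in I80 (log2 fold change -1.19 ± 0.13, limma adjusted p = 0.000118) and 2.36-fold in DI150 (-1.21 ± 0.13, limma adjusted p = 9.86e-05). The difference of DI150 from I80 was -0.03 with an interval of -0.33 to 0.27. The other family members were too low to test: Ccn4 had 11 reads in both I80 libraries together and 1 in DI150, against 65 in PBS, Ccn3 and Ccn5 had at most 15 reads in any library, and Ccn6 had none.

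The proteins that act back on YAP were represented by Amotl2 and Lats2. Amotl2 (gene number 56332, chr9:102717091-102733418) encodes an angiomotin that binds YAP and holds it at cell junctions, and it is itself a target of YAP. Levels were 61.3 and 67.6 CPM in I80, 57.1 and 62.4 CPM in DI150, and 105 and 99.8 CPM in PBS. All treated libraries were below PBS, and the treated lines overlapped. Amotl2 fell 1.59-fold in I80 (log2 fold change -0.66 ± 0.08, limma adjusted p = 0.000245) and 1.71-fold in DI150 (-0.77 ± 0.08, limma adjusted p = 0.000102), with a difference of -0.11 between them (interval -0.30 to 0.08). The paralogs Amot and Amotl1 passed the test in neither comparison with PBS, but in I80 Amot was called with quantile scaling and without PBS replicate 2 (adjusted p = 0.0201 and 0.0483), and Amotl1 with DESeq2 and without PBS replicate 2 (adjusted p = 0.0410 and 0.0137). Amotl1 had 454 and 423 CPM in I80, 373 and 366 CPM in DI150, and 358 and 405 CPM in PBS. Amot had 34.8 and 32.5 CPM in I80, 28.2 and 28.3 CPM in DI150, and 28.2 and 30.2 CPM in PBS. The share of Amotl2 in the summed angiomotin level per kb was 17.8% in I80, 19.2% in DI150 and 28.3% in PBS.

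Lats2 (gene number 50523, chr14:57689662-57746212), the LATS kinase that is also a YAP target, had 25.8 and 26.8 CPM in I80, 33.4 and 31.2 CPM in DI150, and 30.6 and 31.6 CPM in PBS. I80 was the low group, and DI150 overlapped PBS. The fall in I80 against PBS was small (log2 fold change -0.24 ± 0.09, limma adjusted p = 0.0421) and was lost in 9 of 16 alternative settings, among them the omission of I80 replicate 1, I80 replicate 2, DI150 replicate 1, DI150 replicate 3 or PBS replicate 2 (limma adjusted p = 0.0601 to 0.203). DI150 was 1.23-fold higher than I80 (0.29 ± 0.09, limma adjusted p = 0.0302), and this too was lost without any 1 of the 4 treated libraries (limma adjusted p = 0.0689 to 0.177). DI150 against PBS gave 0.05 with an interval of -0.15 to 0.25. The other kinase gene, Lats1, fell in DI150: it had 94.2 and 86.7 CPM in I80 and 60.6 and 67.9 CPM in DI150, against 109.9 and 96.6 CPM in PBS. Lats1 was 1.61-fold lower in DI150 than in PBS (log2 fold change -0.68, limma adjusted p = 0.000414) and 1.41-fold lower than in I80 (-0.49, limma adjusted p = 0.00507, and 0.0552 without I80 replicate 1). Lats2 made up 23.4% of the LATS level per kb in I80, 34.5% in DI150 and 24.0% in PBS.

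Ajuba (gene number 16475, chr14:54567469-54577661) encodes a LIM-domain protein that binds LATS kinases at adherens junctions and restrains them. It had 155 and 145 CPM in I80 and 155 and 139 CPM in DI150, against 342 and 282 CPM in PBS. All treated libraries were close together and far below PBS. Ajuba fell 2.07-fold in I80 (log2 fold change -1.04 ± 0.10, limma adjusted p = 7.4e-05) and 2.12-fold in DI150 (-1.07 ± 0.10, limma adjusted p = 5.86e-05). The treated lines differed by -0.03 (interval -0.27 to 0.21). The gene lies on chromosome 14, whose 367 tested genes had a median log2 fold change of -0.59 in I80 and -0.41 in DI150, and Lats2 lies there too. The part of that chromosome-wide difference in the fall of Ajuba was not tested.

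Of the relatives of Ajuba, Wtip fell in both treated lines, with 4.72 and 4.82 CPM in I80 and 13.5 and 11.8 CPM in DI150, against 25.9 and 27.1 CPM in PBS. It was 5.56-fold lower in I80 (limma adjusted p = 1.89e-06) and 2.10-fold lower in DI150 (limma adjusted p = 0.000132), and 2.64-fold higher in DI150 than in I80 (limma adjusted p = 0.000204). Limd1 had 98.3 and 102 CPM in I80, 125 and 127 CPM in DI150, and 109.9 and 103 CPM in PBS. Limd1 was slightly higher in DI150 than in PBS (log2 fold change 0.24, limma adjusted p = 0.0135), a call lost without DI150 replicate 1 or DI150 replicate 3 (limma adjusted p = 0.0501 and 0.0666). Summed per kb, the 3 genes came to 58.9 and 61.0 in I80, 64.2 and 69.0 in DI150, and 106 and 123 in PBS. Ajuba held 68.8% of that sum in I80, 60.6% in DI150 and 74.7% in PBS. The muscle ankyrin repeat genes related to Ankrd1 were low: Ankrd2 had at most 4 reads in a library, and Ankrd23 had 4.92 and 6.22 CPM in I80, 8.71 and 8.89 CPM in DI150, and 3.91 and 5.90 CPM in PBS. Ankrd23 rose in DI150 (log2 fold change 0.81, limma adjusted p = 0.00847, and 0.0503 without DI150 replicate 3).

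**Figure D3:**
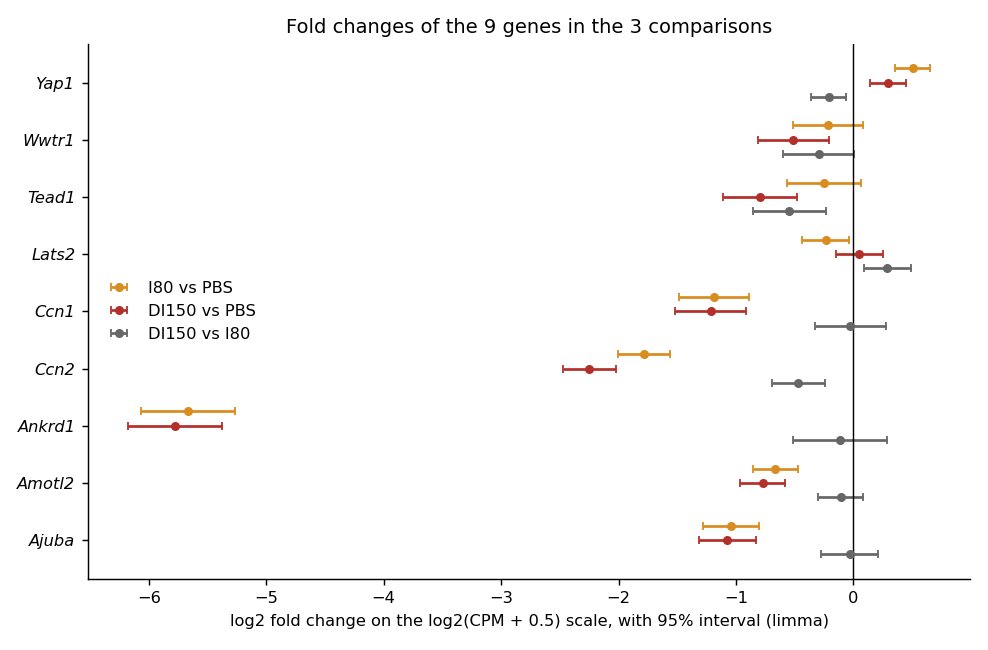
Log2 fold changes of the 9 genes on the log2(CPM + 0.5) scale with their 95% intervals from limma, drawn in 3 colours for the comparison of I80 with PBS, of DI150 with PBS and of DI150 with I80. The intervals of Ccn1, Ccn2, Ankrd1, Amotl2 and Ajuba lie below 0 in both comparisons with PBS, down to -5.66 and -5.78 for Ankrd1, and those of Yap1 lie above 0. The values of Ankrd1 depend on the added 0.5 CPM. Over the alternative settings they ran from -8.50 to -4.79 in I80 and from -9.41 to -4.85 in DI150.

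Between the treated lines, 4 of the 9 genes were called, 1 higher in DI150 and 3 lower, where 43.8% of all tested genes were called and 21.9% in each direction. That share is near the background and is not a result about the 9 genes. Groups did not overlap for 7 of them, where this held for 78.5% of all tested genes. Their median log2 fold change was -0.11. The number called was 0 without I80 replicate 1, 1 without I80 replicate 2, 0 without DI150 replicate 1 and 2 without DI150 replicate 3, and 5 without either PBS library. The plot of fold changes shows the intervals of Wwtr1, Ccn1, Ankrd1, Amotl2 and Ajuba across 0 for this comparison.

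The order of the 9 genes by level per exon length differed between lines. In I80 the order was Ajuba (41.3 CPM per kb), Yap1 (29.7), Wwtr1 (21.1), Ccn1 (19.8), Ccn2 (11.9), Amotl2 (10.3), Tead1 (9.55), Lats2 (3.78) and Ankrd1 (0.0278). In DI150 it was Ajuba (40.4 CPM per kb), Yap1 (25.7), Ccn1 (19.4), Wwtr1 (17.1), Amotl2 (9.50), Ccn2 (8.53), Tead1 (6.56), Lats2 (4.63) and Ankrd1 (0.0132). In PBS it was Ajuba (85.5 CPM per kb), Ccn1 (45.9), Ccn2 (41.2), Wwtr1 (24.8), Yap1 (20.9), Amotl2 (16.3), Tead1 (11.4), Ankrd1 (10.0) and Lats2 (4.46). Ajuba led in every line, and Yap1 stood above Ccn1 and Ccn2 in both treated lines and below both in PBS. Neighbours whose libraries overlapped were Amotl2 and Tead1 in I80, and Ccn1 and Ccn2, Wwtr1 and Yap1, and Tead1 and Ankrd1 in PBS. In DI150 no neighbours overlapped.

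TEAD factors recognise a short core sequence, GGAATG, and RefSeq promoter windows of GRCm38.p6 (250 bases before to 50 after the transcription start) were searched for it on both strands (CATTCC on the other strand). Windows were held for 7 of the 9 genes, and the motif was in at least 1 window of each of the 7, where 14.7% of all 32851 windows, 16.6% of 27025 genes and 14.4% of the 9137 tested genes with a window held it. Of 9 paralogs with a window, 3 held it. The sequences below are those of the genes that moved and show where the motif, in capitals, stands on the gene's own strand, 5′ to 3′. For Ccn1 and Ajuba all 250 bases before the start are given, and for Yap1 and Wwtr1 60 bases. For Ankrd1, Amotl2 and Lats2, whose motifs lie in annotated exons, 30 bases around each site are given.
Ccn1, chr3:145649986-145650235, minus strand: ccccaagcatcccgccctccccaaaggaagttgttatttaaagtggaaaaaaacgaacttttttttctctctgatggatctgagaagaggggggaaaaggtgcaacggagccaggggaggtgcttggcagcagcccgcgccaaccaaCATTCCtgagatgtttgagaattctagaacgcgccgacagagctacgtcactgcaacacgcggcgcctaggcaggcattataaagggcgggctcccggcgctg
Ajuba, chr14:54577662-54577911, minus strand: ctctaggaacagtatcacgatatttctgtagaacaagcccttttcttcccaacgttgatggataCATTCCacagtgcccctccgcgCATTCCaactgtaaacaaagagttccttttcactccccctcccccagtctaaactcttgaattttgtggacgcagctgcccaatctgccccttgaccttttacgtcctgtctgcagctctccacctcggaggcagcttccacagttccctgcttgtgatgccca
Yap1, chr9:8004705-8004764, minus strand: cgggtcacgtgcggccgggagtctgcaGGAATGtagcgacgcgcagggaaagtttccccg
Wwtr1, chr3:57576014-57576073, minus strand: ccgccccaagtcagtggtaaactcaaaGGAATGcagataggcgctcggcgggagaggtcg
Ankrd1 first site, chr19:36120037-36120066, minus strand: gtcactgccaaaGGAATGaccctctcacat
Ankrd1 second site, chr19:36119950-36119979, minus strand: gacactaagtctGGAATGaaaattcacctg
Amotl2, chr9:102717727-102717756, plus strand: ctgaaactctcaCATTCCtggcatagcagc
Lats2, chr14:57746102-57746131, minus strand: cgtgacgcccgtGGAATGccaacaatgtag
The 7 genes with the motif include Yap1, which rose, Ccn1, Ankrd1, Amotl2 and Ajuba, which fell, and Wwtr1 and Lats2, which were called in 1 of the 2 comparisons with PBS. A match to these letters is a description and not a measured binding site.

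**Figure D4:**
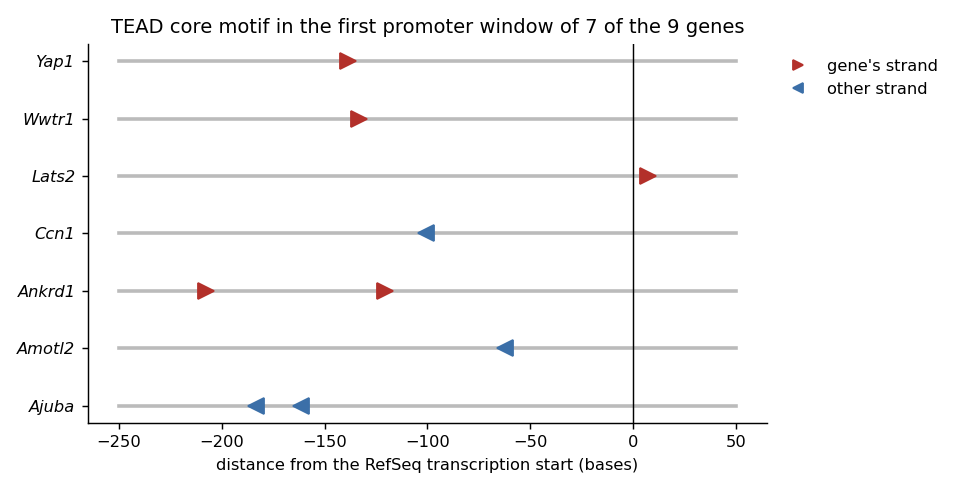
Position of each match to the TEAD core motif in the first promoter window of 7 genes, in bases from the RefSeq transcription start, with the arrow giving the strand relative to the gene. Ankrd1 and Ajuba hold 2 matches each and the other 5 genes hold 1, and the match in Lats2 is the only 1 after that start. The matches in Ankrd1 and Amotl2 lie in annotated GENCODE exons of those same genes, and that in Lats2 lies in exon bases annotated to Lats2 or Gm49361.

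The map of motif positions places the matches at -210 and -123 in Ankrd1, -186 and -164 in Ajuba, -141 in Yap1, -136 in Wwtr1, -103 in Ccn1, -65 in Amotl2 and 5 in Lats2, counted from the start to the first base of the motif. These positions hold for the RefSeq start of the window and not for every annotated start. The sites in Ankrd1 and Amotl2 lie in GENCODE exons of those same genes, and the Lats2 site in exon bases annotated to Lats2 or Gm49361. The Amotl2 and Lats2 sites lie inside the gene spans given above. In Yap1, Wwtr1, Lats2 and Ankrd1 the motif reads GGAATG on the gene's strand, and in Ccn1, Amotl2 and Ajuba it reads CATTCC. The second RefSeq window of Lats2 held no match. A stretch of bases just after the RefSeq start of Ajuba was found in no GENCODE transcript of the gene, unlike those of the other members with a window. The positions in Ajuba therefore rest on the RefSeq start alone.

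Other targets of YAP and TAZ were read from 2 lists of genes reported as targets, both without the 9 genes. Both lists were chosen with earlier results of these data known, so their contrast with all genes describes and does not test. In a published target signature, 14 of 17 genes were tested. In I80, 3 were called higher and 6 lower, with a median log2 fold change of -0.42, and in DI150, 4 were called higher and 7 lower, with a median of -0.51. The shares called, 64.3% in I80 and 78.6% in DI150, stood beside 66.4% and 68.7% over all tested genes, so the count in I80 is no result about the signature. Axl, a receptor tyrosine kinase, had 1 and 2 reads in the I80 libraries and 0 and 4 in the DI150 libraries, against 595 and 573 in the PBS libraries. Pooled reads put Axl 378-fold lower in I80 (exact 95% counting interval 129 to 1837), and it was 298-fold lower in DI150 by mean CPM. Dock5 had 103 CPM in I80 and 98.5 CPM in DI150 on average, against 209.6 CPM in PBS, and Myof, a ferlin of the plasma membrane, had 852 CPM in I80 and 670 CPM in DI150, against 1215 CPM in PBS. Both were called lower in both treated lines. Against this direction, F3, which encodes tissue factor, rose to 94.2 CPM in I80 and 126 CPM in DI150, against 57.1 CPM in PBS, and Nt5e, which encodes the ectonucleotidase CD73, rose to 84.1 CPM in I80 and 69.5 CPM in DI150, against 40.6 CPM in PBS. The rise of Nt5e in DI150 was lost without DI150 replicate 1 or PBS replicate 1 (limma adjusted p = 0.0838 and 0.0686).

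A few genes of the signature were called in DI150 and not in I80. Crim1 was called higher in DI150, with means of 236 CPM in DI150 and 110.1 CPM in I80, against 117 CPM in PBS. Gadd45a was called lower, with 8.66 and 5.84 CPM in DI150 and 21.4 and 21.2 CPM in I80, against 22.6 and 47.6 CPM in PBS. Its PBS libraries stood apart, the lower one close to I80, and in I80 the log2 fold change was -1.14 without PBS replicate 1, where it was called (limma adjusted p = 0.0120), and -0.08 without PBS replicate 2 (limma adjusted p = 0.767). Arhgef17 was called lower as well, with 3.17 CPM in DI150 and 8.04 CPM in I80, against 11.8 CPM in PBS. DI150 against I80 gave log2 fold changes of 1.09 for Crim1 (limma adjusted p = 0.000132), -1.52 for Gadd45a (limma adjusted p = 0.00749) and -1.29 for Arhgef17 (limma adjusted p = 0.0119). The call of Gadd45a between the treated lines was lost without DI150 replicate 3 (limma adjusted p = 0.0620), and that of Arhgef17 without I80 replicate 1, I80 replicate 2 or DI150 replicate 1 (limma adjusted p = 0.0524 to 0.0671). Over the signature, DI150 had 2 genes called higher and 5 lower than I80, or 7 of 14 called beside 43.8% of all tested genes.

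In the longer list of other reported targets, 23 of 27 genes were tested. In I80, 6 were called higher and 13 lower (median -0.63), and in DI150, 5 were called higher and 16 lower (median -0.72). These were 82.6% and 91.3% of the tested genes of the list, beside 66.4% and 68.7% of all tested genes, of which 34.2% and 36.1% were called lower. Col8a1, a collagen chain, had 2 reads in all in I80 and 1 in DI150, against 260.0 and 270.1 CPM in the PBS libraries, and pooled reads put it 6607-fold lower in I80 (exact 95% counting interval 1829 to 54564). Inhba, which encodes the activin A subunit, fell to 0.957 CPM in I80 and 0.596 CPM in DI150, against 24.3 CPM in PBS. Cav1, the main protein of caveolae, fell to 87.1 CPM in I80 and 138 CPM in DI150, against 460 CPM in PBS. The genes called higher in both treated lines included Tuft1 (81.8 CPM in I80 and 96.2 CPM in DI150, against 33.4 CPM in PBS), Cavin2 (245 CPM in I80 and 140.3 CPM in DI150, against 118 CPM in PBS), Bcl2l1 (246 CPM in I80 and 256 CPM in DI150, against 204 CPM in PBS) and Ccnd1, the G1 cyclin (2556 CPM in I80 and 1629 CPM in DI150, against 1360 CPM in PBS). The calls of Cavin2 in DI150 and of Bcl2l1 in I80 were not checked under the alternative settings. In DI150 the call of Ccnd1 was lost without I80 replicate 1, I80 replicate 2, DI150 replicate 1 or PBS replicate 2 (limma adjusted p = 0.0573 to 0.102), and that of Bcl2l1 without DI150 replicate 1 or PBS replicate 1 (limma adjusted p = 0.103 and 0.0979).

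Edn1, which encodes the vasoactive peptide endothelin, was called in opposite directions in the treated lines. It had 2.43 and 2.02 CPM in DI150 and 22.2 and 18.0 CPM in I80, against 11.0 and 10.5 CPM in PBS, and was 9.03-fold lower in DI150 than in I80 (limma adjusted p = 2e-05). Itgb5, an integrin subunit, was called lower in DI150, with a mean of 142 CPM in DI150 and 228 CPM in I80, against 237 CPM in PBS. Between the treated lines, 3 genes of the list were called higher and 6 lower in DI150, or 39.1% called beside 43.8% of all tested genes.

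**Figure D5:**
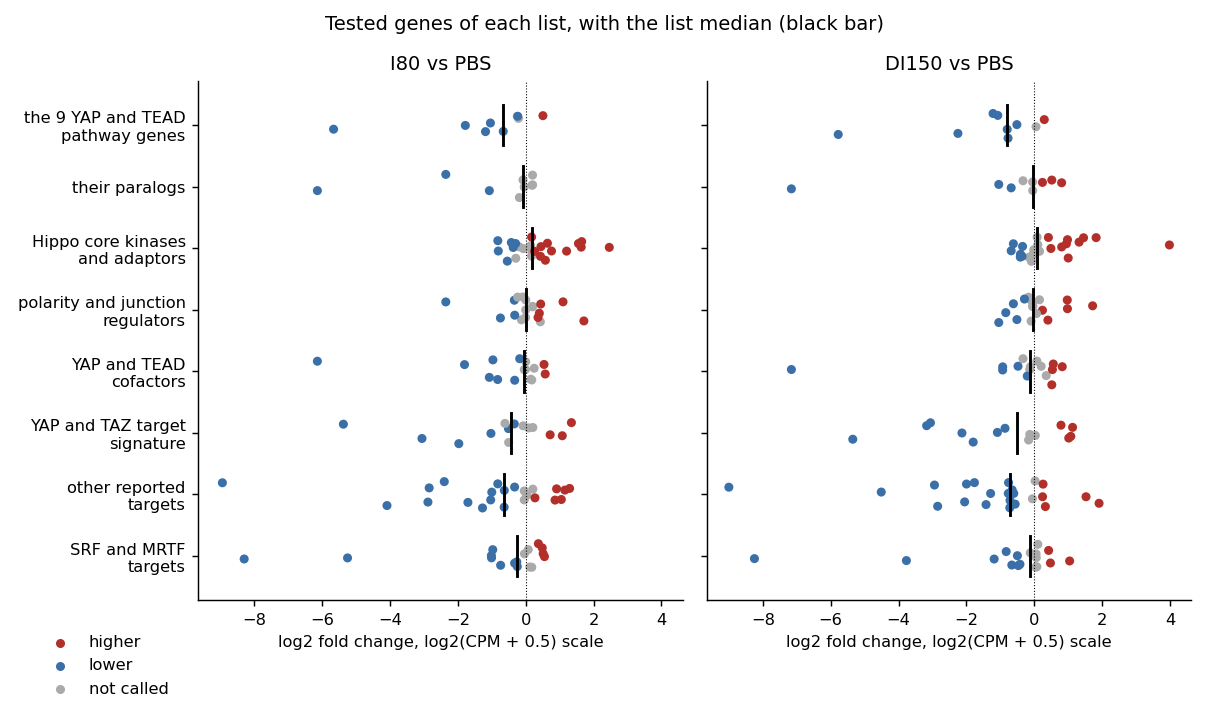
Log2 fold changes of the tested genes of 8 lists, I80 against PBS on the left and DI150 against PBS on the right, with 1 dot for each gene coloured by its call and a black bar at the list median. The 9 genes have a median of -0.66 in I80 and -0.80 in DI150. The other reported targets have medians of -0.63 and -0.72, while the Hippo kinases and adaptors centre near 0. All lists were chosen with earlier results of these data known.

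The kinase side of the pathway was called against PBS about as often as genes at large. Of 25 tested Hippo kinases and adaptors, 12 were called higher and 6 lower in I80 (median 0.17), and 10 higher and 6 lower in DI150 (median 0.09). The 18 genes called in I80 and the 16 in DI150 stood near the 66.4% and 68.7% of all tested genes. Neither count is therefore a result about these kinases and adaptors as a list. The 3 largest rises in each line were of kinases that work beside the core pair. Tnik had 26.4 and 21.9 CPM in I80 and 70.9 and 69.2 CPM in DI150, against 3.27 and 4.77 CPM in PBS, and was 2.90-fold higher in DI150 than in I80 (limma adjusted p = 0.000479). Map4k3 averaged 181 CPM in I80 and 206 CPM in DI150, against 58.0 CPM in PBS, and Stk38l, which encodes a kinase close to LATS, averaged 57.5 CPM in I80 and 50.2 CPM in DI150, against 18.1 CPM in PBS. The upstream regulator Nf2 (merlin) fell, with 274 CPM in I80 and 220 CPM in DI150, against 337 CPM in PBS.

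Other kinases and adaptors of the list fell, rose or split between the lines. Stk3, which encodes the core kinase MST2, was called lower in both lines, at 41.6 CPM in I80 and 42.2 CPM in DI150, against 56.2 CPM in PBS, but in DI150 not without DI150 replicate 1 or PBS replicate 2 (limma adjusted p = 0.0858 and 0.0581). Stk4, which encodes MST1, was called higher in I80 and not in DI150, at 125 CPM in I80 and 93.4 CPM in DI150, against 83.8 CPM in PBS, and was lower in DI150 than in I80 (log2 fold change -0.42, limma adjusted p = 0.00208). Slmap and Mink1 fell in both lines, Slmap to 118 CPM in I80 and 162 CPM in DI150, against 207 CPM in PBS, and Mink1 to 89.3 CPM in I80 and 97.9 CPM in DI150, against 130.5 CPM in PBS. Map4k4 fell in I80 to 270 CPM, against 478 CPM in PBS, and was 1.69-fold higher in DI150 than in I80 at 455 CPM (limma adjusted p = 0.00021). Frmd6 rose to 137 CPM in I80 and 199 CPM in DI150, against 100.4 CPM in PBS, and Taok1 had 232 CPM in I80 and 172 CPM in DI150, against 172 CPM in PBS, with a call in I80. DI150 had 8 genes of the list called higher and 7 lower than I80, a total of 60.0% beside 43.8% of all tested genes, and without 1 library the total ran from 6 to 15.

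Among 18 tested polarity and junction regulators, 5 were called higher and 4 lower in I80 (median -0.001), and 5 higher and 5 lower in DI150 (median -0.05). The totals, 9 of 18 in I80 and 10 of 18 in DI150, were below the 66.4% and 68.7% of all tested genes. Pals1, a scaffold of the Crumbs complex, rose to 116 CPM in I80 and 117 CPM in DI150, against 35.5 CPM in PBS, and the giant cadherin Fat1 to 1592 CPM in I80 and 1465 CPM in DI150, against 743 CPM in PBS. Scrib, a basolateral polarity scaffold, fell to 147 CPM in I80 and 138 CPM in DI150, against 247 CPM in PBS. Ptpn14, a phosphatase that holds YAP in the cytoplasm, was called lower in I80, with 130.3 CPM in I80 and 147 CPM in DI150, against 165 CPM in PBS. Llgl1 was lower in DI150 at 106 CPM than in I80 at 162 CPM and in PBS at 162 CPM, and both differences were called. Pard3 (138 CPM in I80, 192 CPM in DI150, 173 CPM in PBS) was called lower in I80. Patj (213 CPM in I80, 157 CPM in DI150, 161 CPM in PBS) and Dlg1 (291 CPM in I80, 237 CPM in DI150, 227 CPM in PBS) were called higher in I80. Crb3 was called higher in DI150, at 36.2 CPM in DI150 and 24.6 CPM in I80, against 18.4 CPM in PBS.

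Of 15 tested cofactors and competitors, which include the 3 paralogs Tead2, Tead3 and Tead4, 2 were called higher and 7 lower in I80 (median -0.04), and 4 higher and 5 lower in DI150 (median -0.11), which is 60.0% of them in each line, near the 66.4% and 68.7% of all tested genes. Vgll4, which competes with YAP for TEAD factors, rose in DI150 to 52.7 CPM, against 35.6 CPM in PBS, and had 42.3 CPM in I80. Rassf8 fell to 5.65 CPM in I80 and 10.8 CPM in DI150, against 21.0 CPM in PBS. Ywhaz, an adaptor that binds phosphorylated proteins such as YAP, fell to 163 CPM in I80 and 167 CPM in DI150, against 318 CPM in PBS, and its relative Ywhab rose in I80 to 430.2 CPM, with 313 CPM in DI150 and 296 CPM in PBS. Csnk1e and Btrc, whose products take part in the degradation of YAP and TAZ, rose in DI150: Csnk1e had 238 CPM in DI150 and 118 CPM in I80, against 134 CPM in PBS, and Btrc had 40.4 CPM in DI150 and 30.7 CPM in I80, against 27.7 CPM in PBS. DI150 had 7 of these genes called higher and 2 lower than I80, a total of 60.0% beside 43.8% of all tested genes.

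Genes driven by SRF and its coactivators MRTF, which share several targets with YAP, were read beside these lists. The list also holds the factor genes Srf, Mrtfa and Mrtfb, so its counts and medians are not those of targets alone. Of 17 tested out of 24, 4 were called higher and 9 lower in I80 (median -0.25), and 3 higher and 8 lower in DI150 (median -0.11). The shares called were 76.5% in I80 and 64.7% in DI150, beside 66.4% and 68.7% of all tested genes, and the count in DI150 is thus no result about the list. The tropomyosin gene Tpm2 had no read in I80 and 1 read in DI150, against 148 and 167 CPM in the PBS libraries, and was at least 1307-fold lower in I80 (floor of 3 reads per library). Fhl2, a LIM protein, fell to 1.17 and 1.24 CPM in I80 and 4.19 and 4.35 CPM in DI150, against 63.6 and 65.3 CPM in PBS. Tpm4 and Tagln2 fell as well, Tpm4 to 306 CPM in I80 and 348 CPM in DI150, against 618 CPM in PBS, and Tagln2 to 590.0 CPM in I80 and 524 CPM in DI150, against 1189 CPM in PBS. Cnn2 rose to 383 CPM in I80 and 351 CPM in DI150, against 261 CPM in PBS, and Cald1 to 713 CPM in I80 and 767 CPM in DI150, against 554 CPM in PBS. Of the factor genes, Srf rose in DI150 to 135 CPM, against 65.5 CPM in PBS, and had 73.8 CPM in I80, and Mrtfb rose in I80 to 93.3 CPM, against 66.5 CPM in PBS, and had 69.2 CPM in DI150. Flna was called higher in I80 (3099 CPM) and lower in DI150 (1624 CPM) than in PBS (2175 CPM).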

How the data were processed

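Total RNA was depleted of ribosomal RNA and sequenced as single 81-base reads with a stranded kit, per the labels' protocols. The submitters' processing notes name STAR and the mm10 build without versions. No source used here names the counter, its annotation or whether strand was used. Reads of genes that overlap on opposite strands therefore cannot be told apart: exons of Yap1 and Ccn2 meet those of noncoding genes (Gm20416, Gm15270). On their own strand, exons of Lats2 meet those of Gm49361, and exons of the paralog Ankrd23 meet those of Gm42417. The authors deposited 1 table of CPM with 24454 gene numbers, 24374 of them (99.7%) matched to RefSeq genes on GRCm38.p6 (mm10). Dividing by the worth of 1 read gave whole reads within 1e-06 for 100% of 146724 values.

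A DI150 column numbered 3, where the labels give 1 and 2, was used as a DI150 replicate and is called DI150 replicate 3. limma 3.58.1 (R 4.3.3, lmFit and eBayes with trend, two-sided) was run on log2(CPM + 0.5) of all 6 libraries and 11428 genes, with 3 residual and 4.52 prior degrees of freedom. The scripts were tested on simulated data. Alternatives were other pseudocounts (0.1 and 1), no filter, TMM, median-of-ratios and quantile scaling, edgeR 4.0.16 and DESeq2 1.42.0 on recovered reads, 4 libraries only, a replicate block, and each library left out.

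The 9 genes and the gene lists were chosen with earlier results of these data known. The genes and all paralogs are named whatever their values. From each other list, up to 3 called genes with the largest rise and fall per comparison are named, with a mean of at least 5 CPM and groups that do not overlap; a few genes that this rule names are not reported here. Paralogs aside, a gene of these lists was read under the alternatives only in comparisons where this rule named it. Gadd45a was also read in I80 with each library left out. Lists share genes: Lats1, Tead2, Tead3, Tead4, Amot, Amotl1, Limd1 and Wtip stand in 2 lists, as does Ptpn14. Counting intervals and the floor of 3 reads cover counting error only, since PCR copies were not told apart.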

Additional observations from a re-analysis of the deposited data

Results flagged for a closer look

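The effects of the treated lines differed in the test of DI150 against I80 for 4 of the 9 genes and 8 of their paralogs, where 43.8% of all tested genes were called. Log2 fold changes of DI150 against I80 were -0.21 for Yap1, -0.55 for Tead1, -0.47 for Ccn2 and 0.29 for Lats2, and each of these calls was lost without at least 1 library. Among the TEAD paralogs they were -1.02 for Tead2, 0.74 for Tead3 and 0.56 for Tead4. The remaining paralogs gave -0.49 for Lats1, 0.62 for Ankrd23, -0.25 for Amotl1, 0.32 for Limd1 and 1.31 for Wtip. The calls of Amotl1 and Ankrd23 were lost without any 1 of the 4 treated libraries (limma adjusted p = 0.102 to 0.243 and 0.0751 to 0.227) and with no expression filter (0.0675 and 0.0889). Without I80 replicate 1 the calls of Limd1 and Lats1 were lost as well (limma adjusted p = 0.0778 and 0.0552). With a replicate block those of Tead2, Limd1 and Amotl1 were lost (limma adjusted p = 0.0628, 0.108 and 0.289).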

How the results depend on the processing

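Ccn1, Ccn2, Ankrd1, Amotl2 and Ajuba kept their direction and call against PBS in both treated lines under all 16 alternative settings, as did Yap1 in I80. The calls of the 9 genes numbered 6 to 7 in I80 against PBS, 7 to 8 in DI150 against PBS and 2 to 5 in DI150 against I80 under the settings that did not leave out 1 library in turn, and 6 to 8, 7 to 8 and 0 to 5 when 1 library was left out. All tested genes gave 7175 to 8320, 6284 to 8721 and 2688 to 5965 calls under these settings, and 5978 to 7616, 6592 to 7874 and 2487 to 5972 when 1 was left out. The settings first named include a fit of only the 4 libraries compared (5965 genes in DI150 against I80), no filter over 16750 genes (8320 and 8721 against PBS) and the block (7175, 6284 and 2688). With a replicate block, DI150 against I80 had calls for 2688 genes and 2 of the 9 genes (4 without it), since DI150 replicate 3 has no partner and drops out of that fit. Same-numbered I80 and PBS libraries did not deviate together (r = 0.0228 over 11428 genes). This check left out DI150 and had 2 libraries in each group, so it cannot show whether same-numbered libraries share more than a number. Under the block the calls of Lats2 in I80, Yap1 in DI150, and Yap1 and Lats2 between the treated lines were lost (limma adjusted p = 0.0940, 0.113, 0.146 and 0.109), and Tead1 in I80 was called (0.0463). Of the other named genes, Ccnd1 and Limd1 lost their calls in DI150 against PBS (0.225 and 0.158), and Tead2, Limd1, Amotl1, Gadd45a, Dlg1, Myof and Tpm1 between the treated lines (0.0628, 0.108, 0.289, 0.0526, 0.154, 0.245 and 0.196). Uncalled log2 fold changes that changed sign were Amot in DI150, at 0.021 with quantile scaling. Leaving out 1 library turned the sign of 6 such values, and over the libraries left out the value ran from -0.097 to 0.0011 for Amot in DI150, -0.13 to 0.043 for Amotl1 in DI150, -0.44 to 0.0019 for Wwtr1 in I80, -0.086 to 0.45 for Ankrd23 in I80, -0.11 to 0.019 for Tead4 in I80 and -0.11 to 0.046 for Ajuba in DI150 against I80. Lats2 in I80 also lost its call with quantile scaling, with DESeq2 and with only the 4 libraries compared (adjusted p = 0.184, 0.0863 and 0.0630). The cause of these changes was not tested. Quantile scaling put the median log2 fold change of all genes at 0.06 in I80 and 0.03 in DI150, against -0.002 and -0.03 with the deposited scaling. Depth limits Ankrd1, Axl, Col8a1, Tead2 and Tpm2 in the treated lines, where single reads set the fold.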
